A study of Mus musculus with 16 samples.

Results

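The Kcn genes encode potassium channels and the subunits that assemble with them. All gene symbols that begin with Kcn were taken, the FPKM (fragments per kilobase of transcript, scaled to the mapped reads) of the isoforms of each symbol were summed, and the 69 symbols whose mean reached 0.5 FPKM in the 16 cultures are described here. They were chosen by name and level, with earlier results of these data known. The table held 99 Kcn symbols in all, and the 69 genes were part of 16313 genes that passed the same level. The 69 comprised 6 Kv1, 2 Kv2, 4 Kv3, 3 Kv4, 4 Kv7, 7 EAG-type, 6 silent Kv, 5 calcium-activated, 2 sodium-activated, 10 inward rectifier and 7 two-pore channel genes, 10 genes of auxiliary subunits and 3 noncoding or other genes. These classes were set by gene symbol, and the calcium-activated class includes Kcnu1, which was placed there by its symbol and not by its gating. Kcnj14 lay just inside the threshold, with a mean of 0.502 FPKM, and Kcng3 just outside it, with 0.487 FPKM.

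Potassium channels let potassium ions leave the cell and thereby set the resting potential, end the action potential and limit repetitive firing. Voltage-gated (Kv) channels open on depolarisation, calcium- and sodium-activated channels open when these ions accumulate inside the cell, inward rectifiers and two-pore channels act near the resting potential, and silent Kv subunits form no channel of their own but alter Kv2 channels. In ischaemia, energy failure depolarises neurons, and potassium leaves the cells while sodium and calcium enter.

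RNA was measured in primary cortical neurons from wild-type mouse embryos of embryonic day 15, in 4 groups of 4 cultures. CONTROL-VEH received vehicle and a sham procedure, CONTROL-TIA received 10 μM tianeptine (TIA, an atypical antidepressant) at 8 days in vitro (DIV) and the sham procedure, and OGD-VEH and OGD-TIA received vehicle or 10 μM TIA and, 24 h later at 9 DIV, 3 h of oxygen-glucose deprivation (OGD, a culture model of ischaemia). RNA of all groups was taken 6 h after OGD or sham, and the vehicle cultures are labelled untreated in the sample descriptions. Cultures carry the numbers 1 to 16. The sources call the 4 cultures of a group biological replicates but do not say whether they came from separate litters or preparations, so p-values measure the spread between these cultures, which may be partly technical.

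The depth was estimated at 20.5 to 26.2 megareads per culture, with a median of 23.4. This estimate was made from the scaled FPKM values, and the methods of the study give a somewhat lower range of aligned reads. The table gives no counts, so no counting intervals were computed. Neuron markers were accompanied by markers of other brain cells. The summed level of 10 neuron markers was 2980 to 3460 FPKM in CONTROL-VEH, 3010 to 3100 in CONTROL-TIA, 1190 to 2680 in OGD-VEH and 1710 to 2950 in OGD-TIA, and all 10 were below their control mean in both OGD comparisons. The sum of 7 astrocyte markers was 723 to 1540, 617 to 791, 983 to 2470 and 728 to 1880 FPKM in the same order, and OGD-VEH 12, OGD-TIA 16 and CONTROL-VEH 4 held the most. The sums of 7 oligodendrocyte-lineage markers and 4 progenitor markers were 174 to 209 and 77.9 to 119 FPKM in CONTROL-VEH against 239 to 667 and 113 to 354 FPKM in OGD-VEH. Markers of microglia, endothelial and mural cells and fibroblasts summed to at most 3.03, 16.2 and 16.7 FPKM in any culture, with Cx3cr1 and Cldn5 at or near 0. In RNA from whole cultures, fewer cells of a type and less RNA per cell cannot be told apart, and the part of the cell makeup in the Kcn results below was not tested.

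The stretch that makes these proteins potassium channels is the selectivity filter of the pore. It is shown for 7 pore-forming Kcn genes that passed the test after OGD, because they come from different subfamilies and this stretch is what they have in common. Each line gives 45 coding bases, 5′ to 3′, with the 15 bases of the filter in capitals, namely a codon for serine or threonine, any codon, and codons for glycine, tyrosine or phenylalanine, and glycine. The letters were read from GENCODE M21 transcripts on GRCm38.

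Kcnh3: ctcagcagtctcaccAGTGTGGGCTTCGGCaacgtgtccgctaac
Kcnb2: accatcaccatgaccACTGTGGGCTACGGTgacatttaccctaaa
Kcnc2: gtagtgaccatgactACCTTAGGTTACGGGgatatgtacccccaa
Kcnma1: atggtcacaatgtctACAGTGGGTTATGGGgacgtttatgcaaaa
Kcnj9: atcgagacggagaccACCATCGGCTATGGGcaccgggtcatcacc
Kcnj6: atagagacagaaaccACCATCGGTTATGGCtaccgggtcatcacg
Kcng1: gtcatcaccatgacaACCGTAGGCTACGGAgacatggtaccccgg

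These stretches lie at chr15:99232914-99232958 (plus strand) for Kcnh3, chr1:15710031-15710075 (plus) for Kcnb2, chr10:112456214-112456258 (plus) for Kcnc2, chr14:23528398-23528442 (minus) for Kcnma1, chr1:172326169-172326213 (minus) for Kcnj9, chr16:94832762-94832806 (minus) for Kcnj6 and chr2:168262626-168262670 (minus) for Kcng1, all in coding exons. Of the 69 genes, 67 had a coding sequence in the annotation and 55 held the pattern. It was found in 0 of 10 auxiliary subunit genes and occurred at 2 places in 6 of 7 two-pore channel genes, whose name refers to the 2 pore regions in each protein.

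The control cultures expressed Kcn genes over a wide range of levels. In CONTROL-VEH 27 members were at 10 FPKM or more, 38 at 1 to 10 and 4 below 1 FPKM. Kcnmb4, a neuronal beta subunit of BK channels, was among the highest with 60.0 ± 6.18 FPKM (SD, n = 4). It stood well above Kcnt1 (a sodium-activated channel, 30.4 ± 6.65 FPKM), Kcna6 (a Kv1 channel, 25.0 ± 3.99 FPKM), Kcnh3 (23.2 ± 3.58 FPKM) and Kcnd3 (a Kv4 channel of the A-type current, 22.7 ± 3.30 FPKM), whose SDs overlapped their neighbours'. Part of this signal was assigned to isoforms that the annotation does not class as protein-coding. Protein-coding isoforms carried 43.4% of Kcnmb4 in CONTROL-VEH, 36.3% of Kcna6 and 11.8% of Kcnt1, whose coding isoforms summed to 3.58 ± 1.87 FPKM. In 8 of the 69 members coding isoforms held less than 50% of the level.

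The first question was how OGD altered the Kcn genes across both drug arms, that is, the mean of the OGD change without and with TIA in one fit of all 16 cultures. In total, 7 genes were expressed at lower levels after OGD with padj ≤ 0.05 and a log2 fold change ≤ -1, and none was higher. Genes past both thresholds are named as called here; padj is limma's p-value on log2(FPKM + 0.1), adjusted over all 16313 genes. They were the EAG-type channel Kcnh3, the fast Kv3 channel Kcnc2, the silent subunit Kcng1, the G-protein-gated inward rectifiers Kcnj6 and Kcnj9, the BK beta subunit Kcnmb2 and the Kv4-binding protein Kcnip4. These 7 were 10.1% of the 69 members, against 2.01% of all tested genes called lower and 2.79% called higher. At padj ≤ 0.05 with no limit on the fold change, 34 members (49.3%) were lower and 2 were higher, against 13.7% and 18.8% of all genes. The median log2 fold change of the 69 was -0.41 and that of all genes 0.08, and 56 of 69 members were below 0 (all genes: 41.8%). Leaving out any 1 culture left 5 to 10 of the members called lower. Without the 3 cultures richest in astrocyte markers 1 remained, Kcnmb2, while at padj ≤ 0.05 with no fold limit 31 were lower, 28 of them among the 34. Over all genes, 190 were then called lower and 259 higher, against 328 and 455 with all cultures. At any fold 4166 of all genes passed in either direction, against 5302.

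By subfamily, lower expression in this combined comparison at padj ≤ 0.05 and any fold was found for, among others, 5 of 6 silent Kv genes, both sodium-activated genes, 3 of 5 calcium-activated genes, 3 of 6 Kv1 genes, 2 of 4 Kv3 genes, 4 of 10 inward rectifiers, 4 of 10 auxiliary subunits, 3 of 7 EAG-type genes, 3 of 7 two-pore genes and the noncoding Kcnmb4os2. None of the 3 Kv4 genes was lower. The 2 genes that were higher were Kcnd3, with a log2 fold change of 0.49 ± 0.14 (SE, padj = 0.0156), and Kcnj14, an inward rectifier, with 0.65 ± 0.20 (padj = 0.0232). Kcnj14 passed the 0.5 FPKM threshold only through its OGD cultures, with group means of 0.336 and 0.401 FPKM in the controls against 0.631 and 0.641 after OGD, so its direction is tied to the threshold and its values are given as a description.

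**Figure D1:**
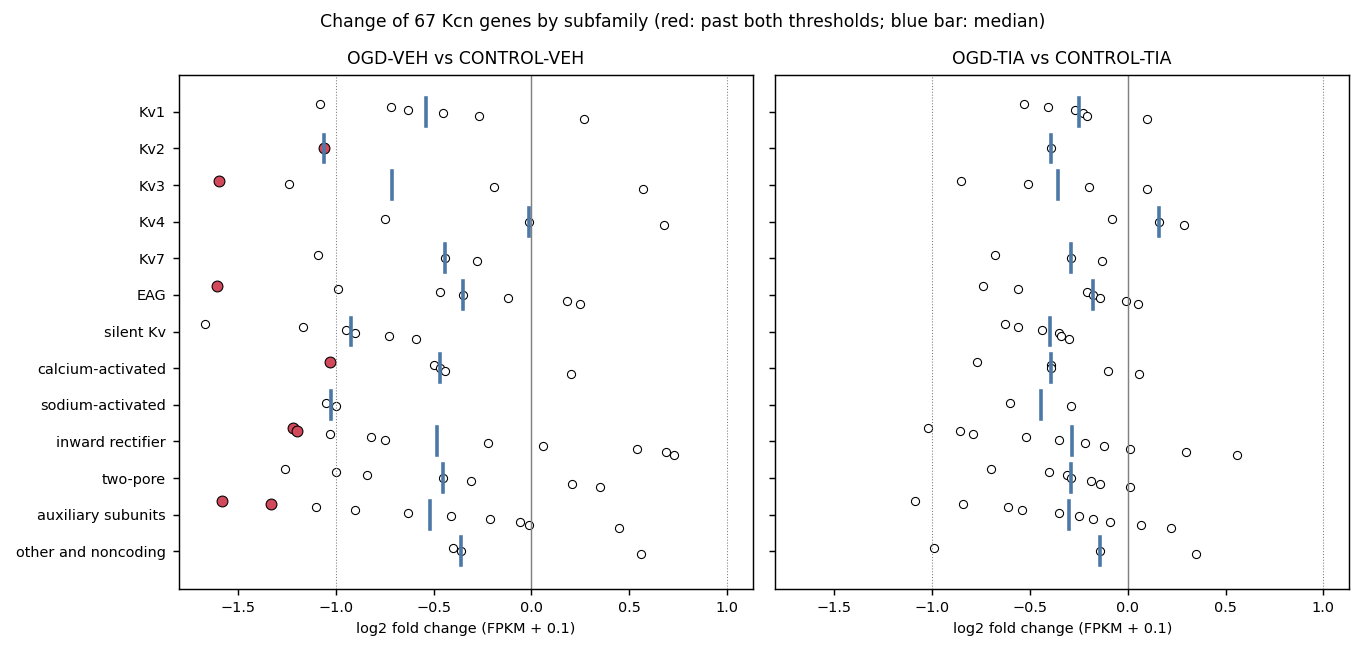
Log2 fold changes (horizontal axis, on log2(FPKM + 0.1)) of 67 Kcn genes by subfamily (vertical axis), each point being 1 gene (red where called) and each blue bar a median, for OGD without TIA (left) and with TIA (right). Most points lie below 0 in both comparisons, with medians over all 69 genes of -0.47 without TIA and -0.29 with TIA, while Kv4 holds Kcnd3 above 0.

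When OGD-VEH was compared with CONTROL-VEH alone, 9 members were called lower (13%) and none higher, against 1.64% and 2.32% of all genes. Those described here were Kcnh3, Kcnb2, Kcnc2, Kcnip4, Kcnmb2, Kcnma1, Kcnj9 and Kcnj6, with padj between 0.0371 and 0.0495. This count depended on the set of cultures. With any 1 of the 8 cultures left out other than OGD-VEH 9, no member was called, without OGD-VEH 9 there were 25, and without the 3 cultures richest in astrocyte markers there was none. Calls over all genes moved too, to 1011 lower and 1161 higher without OGD-VEH 9 and at most 27 and 43 without any other culture. Without the 3 astrocyte-rich cultures 1 of all genes was called lower and 0 higher. The direction of the members was less dependent on the set of cultures. Of the 69 members, 55 were below 0 (all genes: 42.1%) with a median of -0.47 (all genes: 0.10), and the median was -0.42 without those 3 cultures. In 25 members (36.2%) all 4 OGD-VEH cultures lay below all 4 CONTROL-VEH cultures, against 10.0% of all genes, and in 1, the noncoding Kcnd3os, all lay above, against 12.7%.

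Kcnh3 encodes a channel of the EAG superfamily found mainly in forebrain neurons (chr15:99224861-99242817). It was measured at 19.5, 24.9, 27.3 and 21 FPKM in CONTROL-VEH 1 to 4, at 20.2, 24.3, 27.6 and 20.6 in CONTROL-TIA 5 to 8, at 13.1, 7.90, 8.12 and 3.62 in OGD-VEH 9 to 12 and at 17.2, 16, 18.3 and 7.05 in OGD-TIA 13 to 16. Every OGD culture was below every control culture, and OGD-VEH 12 and OGD-TIA 16 were the lowest of their groups. The log2 fold change was -1.61 ± 0.34 (SE, padj = 0.0396) in OGD-VEH against CONTROL-VEH and -1.18 ± 0.24 (padj = 0.00399) over both drug arms. A retained-intron isoform of 572 bases contributed to it, with 6.08 ± 2.51 FPKM in CONTROL-VEH and 0.225 ± 0.272 in OGD-VEH, against 15.6 ± 2.85 and 6.92 ± 3.51 FPKM of the coding isoform of 3698 bases. On coding isoforms alone Kcnh3 was still called in OGD-VEH (-1.29 ± 0.35, padj = 0.0449) but fell short of the fold threshold over both arms (-0.95 ± 0.22, padj = 0.00508), as it did with isoforms weighted by length (-0.96, padj = 0.00351).

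Kcnc2 encodes a Kv3 channel, the type that allows fast-spiking interneurons to fire at high rates (chr10:112271121-112467024). Its levels were 4.56, 3.70, 3.08 and 6.38 FPKM in CONTROL-VEH, 4.56, 3.81, 3.06 and 5.27 in CONTROL-TIA, 3.01, 1.01, 1.07 and 0.974 in OGD-VEH and 2.83, 2.09, 2.45 and 1.69 in OGD-TIA. All 8 OGD cultures were below all 8 control cultures, but OGD-VEH 9 was close to the lowest control and well above the other 3 of its group. The log2 fold change was -1.60 ± 0.39 (padj = 0.0458) without TIA and -1.23 ± 0.23 (padj = 0.00275) over both arms. Kcnc1, another Kv3 channel and the highest of the 4, had 12.8 to 22.7 FPKM in CONTROL-VEH against 15.9 to 41.2 in OGD-VEH, with a log2 fold change of 0.57 ± 0.31 (padj = 0.213) that did not pass the test. The sum over the 4 Kv3 genes was 47.5 ± 5.67 FPKM in CONTROL-VEH against 46.0 ± 9.26 in OGD-VEH, which differed by less than the spread between cultures.

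Kcnb2 is a Kv2 channel, a type that carries much of the delayed-rectifier current of cortical neurons. Kcnb2 (chr1:15287254-15723750) had 2.69, 3.87, 3.14 and 3.21 FPKM in CONTROL-VEH, 2.83, 3.50, 3.36 and 3.25 in CONTROL-TIA, 2.28, 1.30, 1.51 and 1.08 in OGD-VEH and 2.72, 2.73, 2.75 and 1.72 in OGD-TIA. The OGD-VEH cultures were all below both control groups. The OGD-TIA cultures were all below CONTROL-TIA, and OGD-TIA 13, 14 and 15 were just above CONTROL-VEH 1, the lowest control (2.69 FPKM). Its log2 fold change was -1.06 ± 0.25 (padj = 0.0444) without TIA and -0.39 ± 0.18 (padj = 0.270) with TIA.

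The silent Kv subunits, which modify Kv2 channels, had the lowest sum in OGD-VEH relative to the control of all subfamilies, 52.2%, and 73.0% in OGD-TIA. Kcng1 (chr2:168260117-168281736) had 11.1, 15.4, 15.1 and 12.2 FPKM in CONTROL-VEH, 11.9, 14.8, 13.3 and 17.0 in CONTROL-TIA, 8.33, 4.87, 5.15 and 1.34 in OGD-VEH and 8.67, 13.1, 11.3 and 5.30 in OGD-TIA. OGD-VEH lay below both control groups, and OGD-TIA 14 and 15 lay within the range of the controls. Kcng1 was called over both arms (-1.15 ± 0.29, padj = 0.0107). In OGD-VEH alone its log2 fold change was larger, -1.67 ± 0.48, but with the spread from 8.33 to 1.34 FPKM it missed the threshold (padj = 0.0592). Kcnf1, the highest of the 6 on average over all cultures, fell to a smaller extent, by 0.47 on the log2 scale over both arms (padj = 0.00739), from 11.8 to 13.4 FPKM in CONTROL-VEH to 5.89 to 9.56 FPKM in OGD-VEH.

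Kcnma1 encodes the pore of the BK channel, which opens on calcium entry and depolarisation, and Kcnmb2 and Kcnmb4 encode beta subunits that tune it. Kcnma1 (chr14:23289431-24014491) had 17.1, 18.2, 18.7 and 19.4 FPKM in CONTROL-VEH, 17.0, 17.7, 17.5 and 19.0 in CONTROL-TIA, 14.1, 9.00, 9.40 and 5.25 in OGD-VEH and 15.3, 15.0, 15.0 and 9.63 in OGD-TIA. The control cultures were within a narrow range and all OGD cultures were below it. Its log2 fold change was -1.03 ± 0.26 (padj = 0.0495) without TIA and -0.71 ± 0.16 (padj = 0.00593) over both arms. Kcnmb2 (chr3:31902507-32200180) had 2.66, 1.77, 2.32 and 1.93 FPKM in CONTROL-VEH, 2.79, 2.29, 2.37 and 2.52 in CONTROL-TIA, 1.37, 0.501, 0.554 and 0.451 in OGD-VEH and 1.30, 1.06, 1.52 and 0.733 in OGD-TIA. Its groups did not overlap, and it had the largest change of the members over both arms, -1.33 ± 0.21 (padj = 0.00118). Kcnmb4, with 51.9 to 66.8 FPKM in CONTROL-VEH against 20.2 to 53.1 in OGD-VEH, did not pass (-0.40 ± 0.16 over both arms, padj = 0.0694).

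Kcnip4 belongs to the calcium-binding proteins that attach to Kv4 channels (chr5:48389502-49524907). Its levels were 3.25, 3.89, 3.88 and 5.98 FPKM in CONTROL-VEH, 2.77, 3.85, 4.57 and 5.81 in CONTROL-TIA, 2.39, 1.67, 1.30 and 1.21 in OGD-VEH and 1.96, 2.64, 2.66 and 1.88 in OGD-TIA. All OGD cultures were below all controls, by a small margin between OGD-TIA 15 and CONTROL-TIA 5. The log2 fold change was -1.33 ± 0.27 (padj = 0.0371) without TIA and -1.08 ± 0.18 (padj = 0.00181) over both arms. Kcnd3, the main Kv4 channel here, went the other way, with 19.9, 21.4, 22.3 and 27.5 FPKM in CONTROL-VEH, 19.8, 22.5, 21.9 and 22.5 in CONTROL-TIA, 24.3, 37.9, 36.5 and 51.9 in OGD-VEH and 23.2, 25.0, 24.6 and 35.0 in OGD-TIA. OGD-VEH 9 lay within the CONTROL-VEH range and the other 3 above it. The 4 OGD cultures with the most Kcnd3 were OGD-VEH 10, 11 and 12 and OGD-TIA 16. Among OGD cultures these also had the highest astrocyte, oligodendrocyte-lineage and progenitor marker sums. CONTROL-VEH 4 had 27.5 FPKM of Kcnd3 with an astrocyte sum of 1540 FPKM, against 1320 and 1210 FPKM in OGD-VEH 10 and 11. The part of cell makeup was not tested. The rise of Kcnd3 passed padj only over both arms and stayed below the fold threshold. In OGD-VEH alone the log2 fold change was 0.68 ± 0.22 (padj = 0.0763).

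The inward rectifiers divided into genes that were lower and genes that were not. Kcnj9 and Kcnj6 encode GIRK channels, which G-protein-coupled receptors open to hyperpolarise neurons. Kcnj9 (chr1:172320501-172329318) had 5.39, 5.32, 4.44 and 4.31 FPKM in CONTROL-VEH, 5.95, 5.32, 4.71 and 6.14 in CONTROL-TIA, 3.73, 1.71, 2.01 and 1.36 in OGD-VEH and 2.63, 2.67, 3.49 and 2.06 in OGD-TIA. The OGD cultures were all below the controls, and Kcnj9 was among the members whose change with TIA was close to that without, -1.02 ± 0.17 (padj = 0.0982) against -1.20 ± 0.29 (padj = 0.0458), with -1.11 ± 0.17 (padj = 0.00124) over both arms. Kcnj6 (chr16:94748636-94997701) had 2.40, 2.89, 2.59 and 2.02 FPKM in CONTROL-VEH, 2.83, 2.54, 2.55 and 2.43 in CONTROL-TIA, 1.57, 1.02, 1.12 and 0.530 in OGD-VEH and 1.38, 1.72, 1.85 and 0.800 in OGD-TIA, again without overlap. Its log2 fold change was -1.22 ± 0.31 (padj = 0.0481) without TIA and -1.04 ± 0.20 (padj = 0.00292) over both arms.

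Kcnj10 encodes the inward rectifier through which astrocytes take up potassium. It had 8.98 to 11.4 FPKM in CONTROL-VEH, 9.05 to 11 in CONTROL-TIA, 11.3, 11.5, 12.3 and 27.0 in OGD-VEH and 9.88, 10.9, 9.19 and 22.4 in OGD-TIA. OGD-VEH 12 and OGD-TIA 16, the cultures with the highest astrocyte marker sums, stood apart, and the change over both arms did not pass (0.42 ± 0.20, padj = 0.124). CONTROL-VEH 4, also rich in astrocyte markers (summed 1540 FPKM), had 10.3 FPKM of Kcnj10, between other cultures of its group. Kcnj14, which is a member only through its OGD values, encodes a strong inward rectifier and had a low level, with 0.233 to 0.489 FPKM in CONTROL-VEH, 0.285 to 0.473 in CONTROL-TIA, 0.367 to 0.823 in OGD-VEH and 0.477 to 0.768 in OGD-TIA. Its OGD-VEH range overlapped that of CONTROL-VEH, and its OGD-TIA range did not overlap that of CONTROL-TIA.

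**Figure D2:**
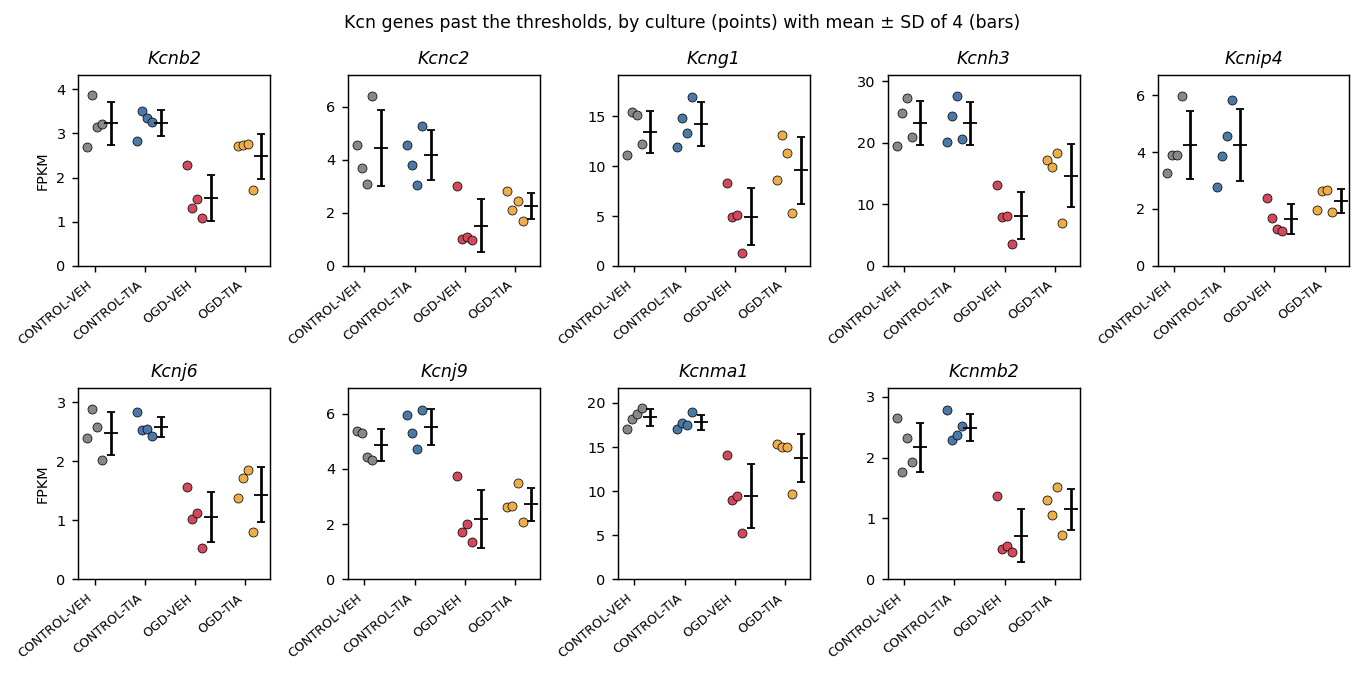
FPKM (vertical axis, linear from 0) of each of 9 Kcn genes called in at least 1 comparison, by group (horizontal axis); points are cultures and bars the mean ± SD of 4. In each gene OGD-VEH 12 and OGD-TIA 16 are the lowest cultures of their groups.

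Among the remaining subfamilies, both sodium-activated genes, whose channels open when sodium accumulates in the cell, were lower over both arms without reaching the fold threshold, Kcnt1 by -0.80 ± 0.18 (padj = 0.00689) and Kcnt2 by -0.67 ± 0.16 (padj = 0.00849). On coding isoforms alone Kcnt2 still passed padj (limma, -0.61 ± 0.16, padj = 0.0103) and Kcnt1 did not (-0.84 ± 0.33, padj = 0.058). Summed over its isoforms, Kcnt1 spread widely in OGD-VEH, with 28.1, 9.81, 14 and 12.7 FPKM. Its OGD-VEH 9 value fell within the CONTROL-VEH range of 20.6 to 35.1 FPKM. Kcna6, the main Kv1 gene, changed by -0.52 ± 0.12 (padj = 0.00765), from 25.0 ± 3.99 FPKM in CONTROL-VEH to 16.3 ± 3.19 FPKM in OGD-VEH. Among the two-pore channels, which carry background potassium current, Kcnk2 (TREK-1) ranged from 14.2 to 21.2 FPKM in CONTROL-VEH and from 13.7 to 38.8 in OGD-VEH and did not pass (0.18 ± 0.19 over both arms, padj = 0.484). The two-pore sum was 68.8 ± 2.94 FPKM in CONTROL-VEH against 61.1 ± 5.61 in OGD-VEH. Kcnmb4os2, a noncoding gene named for the strand opposite Kcnmb4, was lower over both arms by -0.68 ± 0.21 (padj = 0.0248). Whether strand was used in estimating the levels is not given in the sources used here, so reads of Kcnmb4os2 and Kcnd3os may not be separable from those of their partner genes.

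The sum over all 69 members was 705 ± 24.5 FPKM in CONTROL-VEH, 729 ± 28.4 in CONTROL-TIA, 531 ± 44.6 in OGD-VEH and 588 ± 51.6 in OGD-TIA, so that OGD cultures held 75.3% of their control without TIA and 80.7% with TIA. No OGD culture reached the lowest control culture. Sums in OGD-VEH were 52.7% of CONTROL-VEH for sodium-activated genes, 66.3% for EAG-type genes, 71.6% for calcium-activated genes, 74.0% for Kv1 and for auxiliary subunits, and 82.6% for inward rectifiers. The Kv4 sum was 132% of the control, 53.3 ± 11.1 against 40.4 ± 3.49 FPKM, with OGD-VEH 9 (39.0 FPKM) inside the control range.

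**Figure D3:**
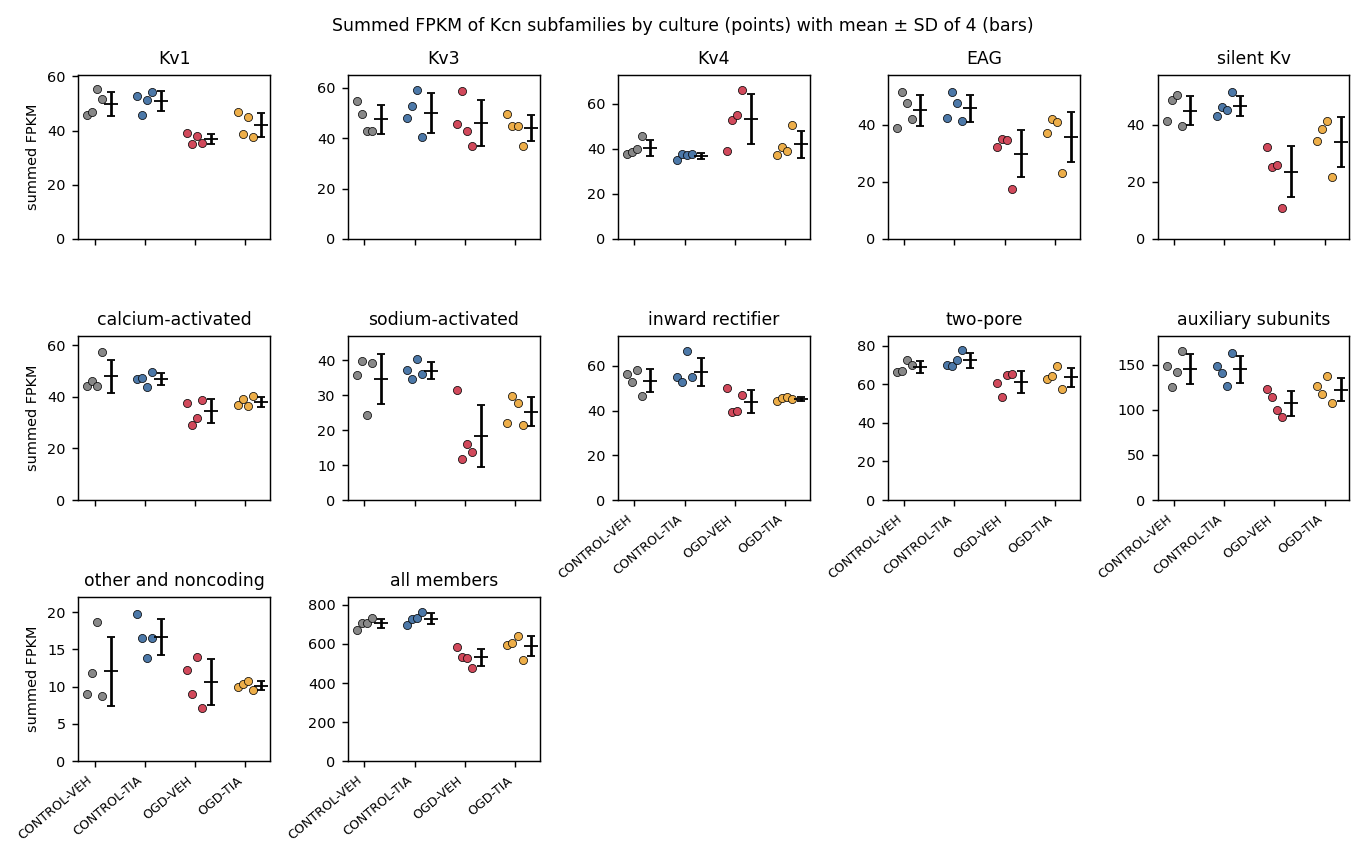
Summed FPKM (vertical axes, from 0) of 11 Kcn subfamilies and of all 69 members by group (horizontal axis); points are cultures and bars the mean ± SD of 4. The OGD-VEH sums lie below CONTROL-VEH without overlap for Kv1, EAG, silent Kv, calcium-activated and two-pore genes and auxiliary subunits, whereas those of Kv3 overlap and that of Kv4 has a higher mean.

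The second question was whether OGD altered these genes in cultures pretreated with TIA. In OGD-TIA against CONTROL-TIA no member was called in either direction, and 0.0% of all genes were called lower or higher. At an unadjusted p under 0.05, 23 members (33.3%) were lower and none higher, against 19.6% of all genes in either direction. As without TIA, most members were below 0, namely 56 of 69 (all genes: 44%), with a median of -0.29 (all genes: 0.05). In 20 members (29.0%) the highest OGD-TIA value was under the lowest CONTROL-TIA value, against 6.65% of all genes, and in 2, Kcnd3 and Kcnj14, the reverse held, against 9.53%, although for Kcnj14 this is tied to the level threshold. The members with the smallest limma p were Kcnmb4os2 (-0.99 ± 0.13, padj = 0.0722), Kcnj9 (padj = 0.0982) and Kcnmb2 (-1.09 ± 0.22, padj = 0.108). Kcnmb4os2 had 16, 14, 11 and 13.3 FPKM in CONTROL-TIA and 6.79, 6.34, 7.32 and 6.37 in OGD-TIA, with no overlap.

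When the 8 OGD cultures were set against the 8 CONTROL cultures, 12 members (17.4%) were lower in every OGD culture than in any control culture, against 2.42% of all genes, and none was higher throughout, against 3.22%. Among them were Kcnh3, Kcnc2, Kcnma1, Kcnmb2, Kcnip4, Kcnj9, Kcnj6 and Kcnf1, and also Kcnc4, Kcnj3 and Kcnj4, which are named because their values were seen. Kcnj3 is a further GIRK subunit, Kcnj4 a strong inward rectifier and Kcnc4 a Kv3 channel. Kcnj4, for example, had 12.5 to 14.5 FPKM over all control cultures, 3.63 to 9.71 in OGD-VEH and 4.87 to 9.33 in OGD-TIA.

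**Figure D4:**
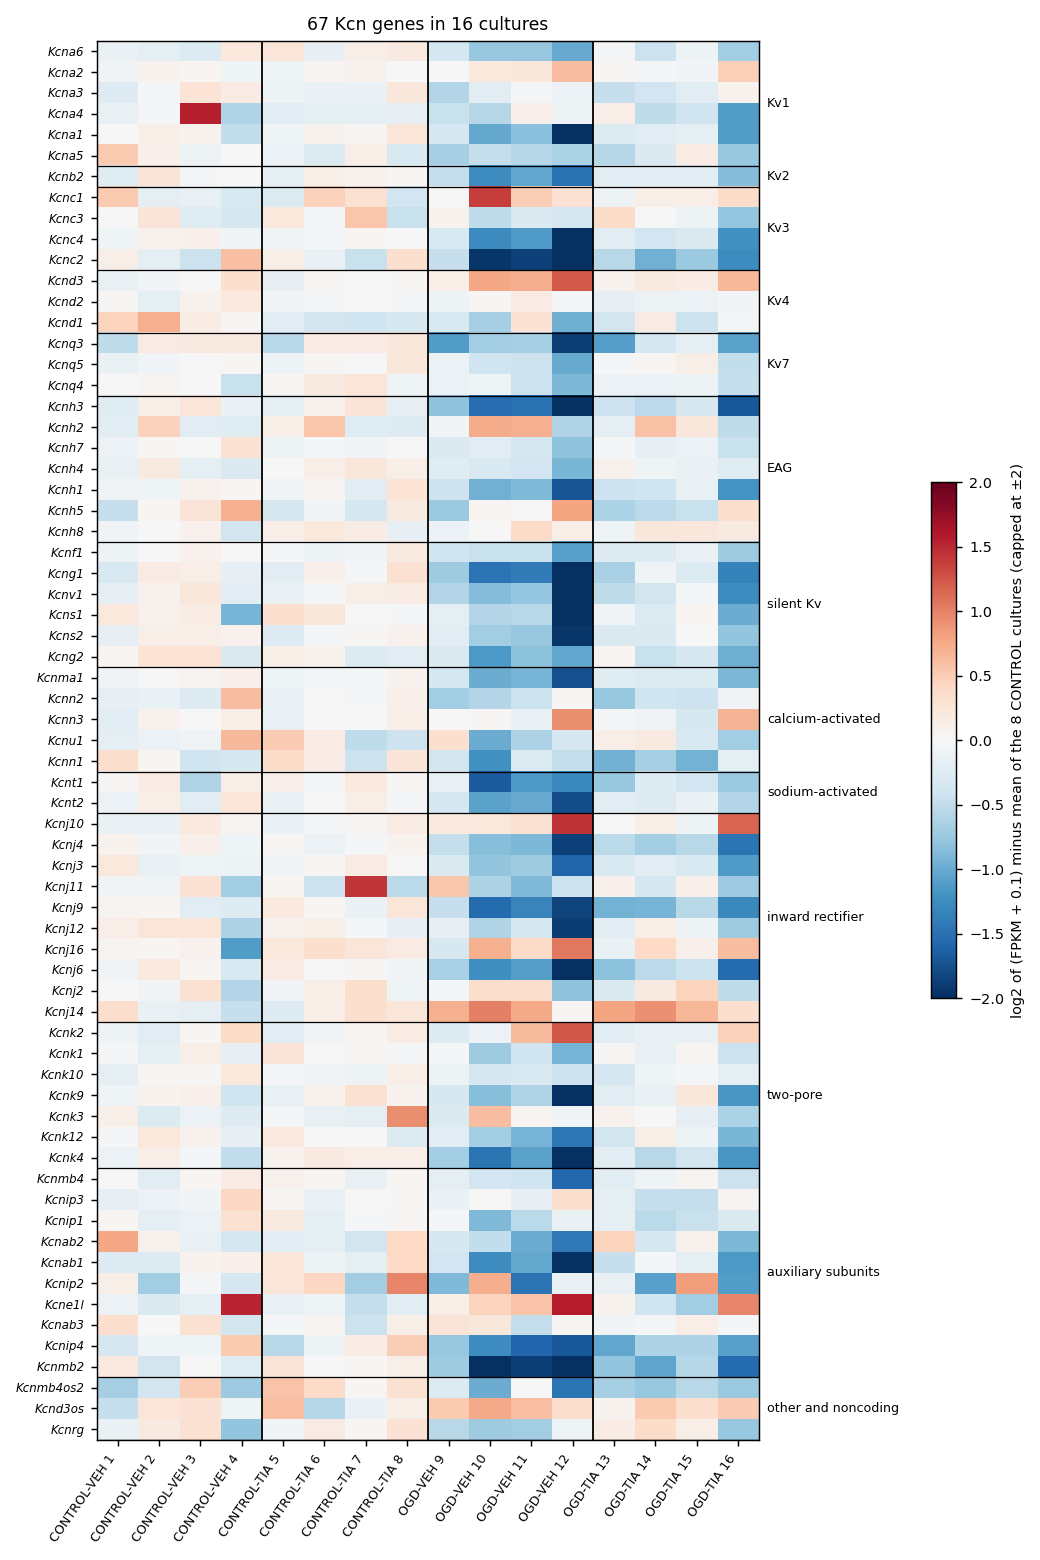
Heat map of 67 Kcn genes (rows, by subfamily) in the 16 cultures (columns, by group); colour is log2(FPKM + 0.1) minus the mean of the 8 CONTROL cultures, capped at 2 either way. The lower levels are deepest in OGD-VEH 12, the lowest culture of its group for 42 of all 69 genes, and OGD-TIA 16, the lowest for 46. Within OGD-VEH they are palest in OGD-VEH 9, the highest of its group for 40.

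The third question was whether TIA itself altered Kcn expression. In sham cultures (CONTROL-TIA against CONTROL-VEH) no member was called and 0.0% of all genes were called in either direction, and 29 of 69 members were below 0 (all genes: 51.6%). At an unadjusted p under 0.05 only Kcnd1 was lower and Kcnmb4os2 higher, against 3.87% of all genes in either direction. Kcnd1, a Kv4 channel, had 5.31, 6.41, 4.30 and 3.92 FPKM in CONTROL-VEH and 3.28, 2.96, 2.91 and 3.06 in CONTROL-TIA, without overlap (-0.67 ± 0.16, padj = 1.0). The two-sided exact permutation test gave p = 0.0286, the smallest that 4 against 4 cultures allow. Every gene without overlap gets this value, so it adds nothing to the lack of overlap. Without overlap were 1 member lower and 1 higher, against 175 and 157 of all 16313 genes. On coding isoforms alone the change of Kcnd1 was 0.01 ± 0.14. Kcnmb4os2 had 6.72, 8.34, 15.1 and 6.46 FPKM in CONTROL-VEH, and CONTROL-VEH 3 lay within the CONTROL-TIA range. None of the genes called after OGD differed between the sham groups by more than 0.20 on the log2 scale.

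After OGD (OGD-TIA against OGD-VEH) no member was called and 0.0% of all genes were called in either direction, and 50 of 69 members were above 0 and 19 below (all genes: 56.2% below 0). At an unadjusted p under 0.05, Kcnb2 (0.68 ± 0.27, padj = 0.551) and Kcnt2 (0.75 ± 0.29, padj = 0.551) were higher, against 7.93% of all genes in either direction. Their groups overlapped: Kcnt2 had 3.43, 2.03, 2.11 and 1.20 FPKM in OGD-VEH and 3.73, 3.64, 3.96 and 2.88 in OGD-TIA, and OGD-VEH 9 was above OGD-TIA 16. No member was without overlap between these groups, against 2.46% of all genes lower and 1.32% higher.

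The difference between the OGD change with TIA and the OGD change without TIA was also tested directly (interaction). No member was called, and 0.0% of all genes were called in either direction. At an unadjusted p under 0.05, Kcnb2 (0.67 ± 0.30), Kcnd1 (0.91 ± 0.34) and Kcnt2 (0.77 ± 0.32) were above 0, all with padj = 0.722, against 6.06% of all genes in either direction. On coding isoforms alone Kcnd1 fell to 0.16 ± 0.21, while Kcnb2 (0.67 ± 0.29) and Kcnt2 (0.65 ± 0.32) stayed similar. Summed over all isoforms, the difference was above 0 in 46 of 69 members and below in 23 (all genes: 54.2% below 0). For the genes with the largest OGD changes the interaction was 0.88 ± 0.48 (Kcnh3), 0.75 ± 0.46 (Kcnc2), 1.04 ± 0.59 (Kcng1) and 0.49 ± 0.41 (Kcnmb2). Each of these differences was under 2 SE, and the 9 calls without TIA against 0 with TIA do not show that the arms differed.

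The Kcn changes ran beside those of the neuron markers. The median log2 fold change of the 10 neuron markers was -0.93 without TIA, -0.36 with TIA and -0.62 over both arms, and 22, 27 and 25 of the 69 members were below that median in the 3 comparisons. In all 9 called genes shown, OGD-VEH 12 was the lowest and OGD-VEH 9 the highest of OGD-VEH, and OGD-TIA 16 was the lowest of OGD-TIA. These cultures had neuron marker sums of 1190, 2680 and 1710 FPKM and astrocyte marker sums of 2470, 983 and 1880 FPKM.

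**Figure D5:**
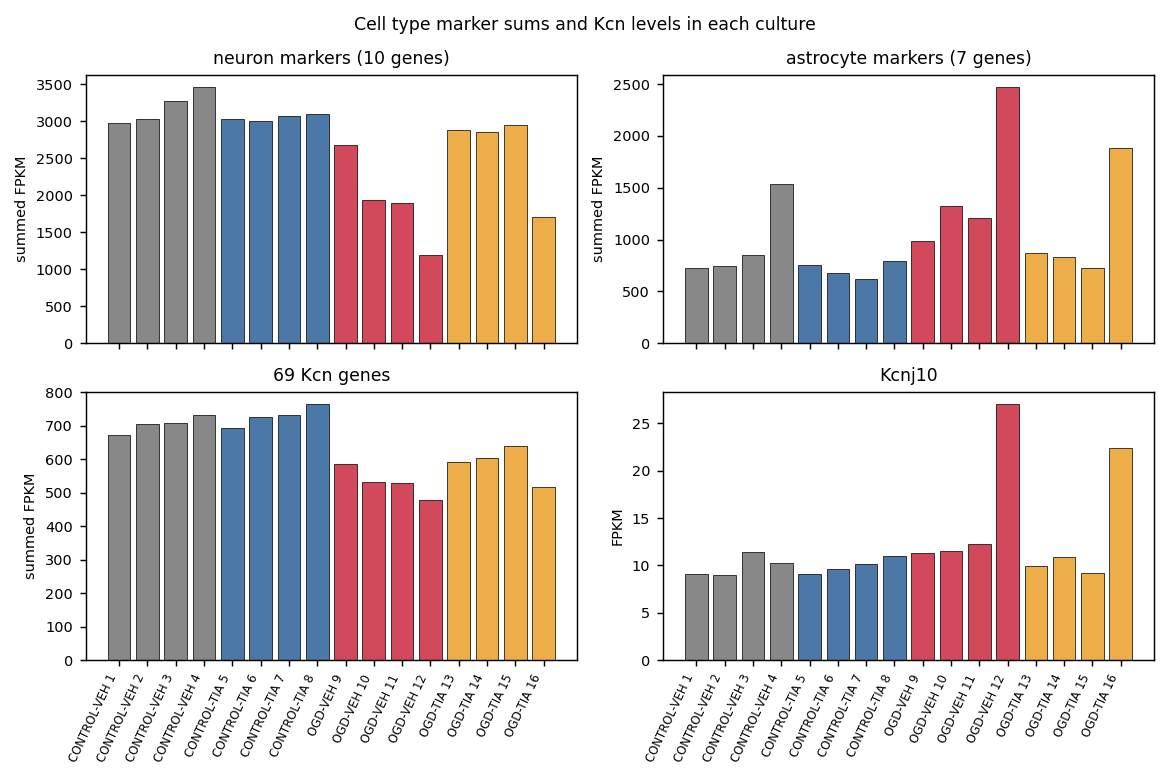
Summed FPKM of 10 neuron markers, 7 astrocyte markers and the 69 Kcn genes, and FPKM of Kcnj10 (vertical axes, from 0), in each of the 16 cultures (horizontal axis, coloured by group). OGD-VEH 12 and OGD-TIA 16 have the lowest neuron and Kcn sums and the highest astrocyte sums and Kcnj10 of their groups.

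Other genes of potassium handling, taken from a list of 36 accessory proteins, pumps, cotransporters and HCN channels, of which 32 were tested, were compared in the same way. In OGD-VEH 25 of 32 were below 0 with a median of -0.72 (all genes: 42.1% and 0.10), and 3 were called lower and none higher, against 1.64% and 2.32% of all genes. These were Hcn3, a hyperpolarisation-activated cation channel, with 40.6 ± 5.95 FPKM in CONTROL-VEH and 16 ± 4.15 in OGD-VEH (-1.36, padj = 0.0289), Lgi1, a secreted protein that acts on Kv1 channels and synapses, with 16.3 ± 3.54 and 7.47 ± 2.0 FPKM (-1.13, padj = 0.0371), and Cntn2, which helps cluster Kv1 channels on axons, with 16 ± 2.82 and 7.93 ± 3.26 FPKM (-1.06, padj = 0.0472). With TIA 24 of 32 were below 0 with a median of -0.26 (all genes: 44% and 0.05), and none was called. Over both arms 25 were below 0 with a median of -0.50 (all genes: 41.8% and 0.08), and 2 were called lower and none higher, against 2.01% and 2.79% of all genes, among them Cntn2 (-1.0, padj = 0.0035). At any fold 17 were lower and 1 was higher, against 13.7% and 18.8% of all genes, the latter being Rest, a repressor of neuronal genes (0.68, padj = 0.00504). Slc12a5, the potassium-chloride cotransporter KCC2, was named after its value was seen and changed by -0.97 over both arms (padj = 0.0122).

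Of the 30 Kcn symbols below the threshold, 18 had a mean under 0.1 FPKM and 1, Kcnk18, was listed at 0 in every culture. None of the 30 was called in any comparison when tested without the filter.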

How the data were processed

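The table deposited by the authors holds FPKM per isoform for 16 libraries, scaled between libraries by TMM and not logged. Per the labels and methods, stranded mRNA libraries were read as 50-base single ends and mapped with STAR to GRCm38 (Ensembl 92), and isoform levels were estimated with eXpress; versions are not given in the sources used here. The 135276 lines included 74 without an identifier, which were left out, and 99.89% of isoforms were found in GENCODE M21. Depth was estimated from the smallest values of 17592 single-isoform genes, not from counts.

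Isoforms were summed by symbol to 53679 genes, and the 16313 with a mean of at least 0.5 FPKM were tested on log2(FPKM + 0.1) with limma 3.58.1 in R 4.3.3 (empirical Bayes with trend). Fold changes are on that scale, which understates those of low genes. Pairwise comparisons used their 8 cultures, the interaction and the mean OGD change all 16. A gene was called at a Benjamini-Hochberg padj ≤ 0.05 and a log2 fold change ≥ 1 or ≤ -1. FPKM values are not counts, so no count test was used.

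Named genes were those called in any comparison, the highest of each subfamily, the 3 smallest p-values of each comparison without a call, and the genes next to the threshold. Some genes under this rule are not reported here by name, and the plots of single genes and of subfamily sums leave them out. They remain in the counts and in sums over all members. The members and gene lists were chosen with earlier results of these data known. Alternatives covered the pseudocount, filter, scaling, isoform weighting, fit and each culture left out. Tables were handled in Python 3.11.15 (pandas 2.3.3, numpy 2.4.6, scipy 1.17.1).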

Additional observations from a re-analysis of the deposited data

Results flagged for a closer look

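In 92 groups of 4 cultures tested (23 named genes), 11 held a culture far from the other 3. Chance alone gives about 1 in 20 for a single group. The 92 groups come from the same 16 cultures and are not independent, so the 11 cannot be weighed against that rate. OGD-TIA 16 was apart in Kcnb2 at 1.72 FPKM (others 2.72 to 2.75), Kcnma1 at 9.63 FPKM (others 15.0 to 15.3), Kcnd3 at 35.0 FPKM (others 23.2 to 25.0) and Kcnk2 at 22.5 FPKM (others 14.2 to 14.8). It was also apart in Kcnj10 at 22.4 FPKM (others 9.19 to 10.9). OGD-VEH 12 was apart in Kcnj10 at 27.0 FPKM (others 11.3 to 12.3) and in Kcnf1 at 5.89 FPKM (others 9.23 to 9.56). OGD-VEH 9 was apart in Kcnmb2 at 1.37 FPKM (others 0.451 to 0.554) and in Kcnc2 at 3.01 FPKM (others 0.974 to 1.07). In the control groups, CONTROL-VEH 1 was apart in Kcnc1 at 22.7 FPKM (others 12.8 to 14.3) and CONTROL-TIA 8 in Kcnf1 at 14.3 FPKM (others 11.8 to 12.2).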

How the results depend on the processing

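The count of 9 Kcn genes lower in OGD-VEH became 3 with a pseudocount of 1, 0 without a filter on low values, 0 when each isoform was tested by itself, and 15 with array quality weights, 15 with isoforms weighted by length and 18 with all 16 cultures in one fit. It was 0 without the 3 cultures richest in astrocyte markers, an alternative chosen after seeing the data, and 0 to 25 with 1 culture left out, 25 being the count without OGD-VEH 9. The count of 7 over both arms became 2 with a pseudocount of 1, 34 at any fold, 1 without those 3 cultures and 5 to 10 with 1 culture left out, and the count of 0 higher became 2 at any fold. With array quality weights 1 Kcn gene was higher in OGD-TIA than in OGD-VEH, where 232 of all genes were then lower and 138 higher. The log2 ratio of the noncoding and other genes with TIA went from -0.71 to -0.42 with isoforms weighted by length. The cause of these shifts was not tested beyond what leaving out samples or genes shows by construction. The summed log2 ratio in OGD-VEH, which has no test, changed sign for Kv3 genes, from -0.05 to 0.03 without CONTROL-VEH 1 and 0.05 without OGD-VEH 12, and for noncoding and other genes, from -0.19 to 0.11 without CONTROL-VEH 3. The log2 changes of the called genes kept their sign under every alternative run. Over all genes in OGD-VEH, 268 lower and 378 higher became 314 and 321 with median-ratio scaling on top of TMM. They became 10 and 26 without a filter, 796 and 1111 with array quality weights, 457 and 644 with length weighting, 663 and 727 in one fit of 16 cultures, 1 and 0 without the 3 astrocyte-rich cultures, 1011 and 1161 without OGD-VEH 9 and at most 27 and 43 without any other culture. Over both arms, 328 and 455 became 142 and 251 with a pseudocount of 1 and 190 and 259 without the 3 cultures. No paired analysis was run, because the groups share no replicate number and no label ties a culture to one of another group. The last-numbered culture of each group (4, 8, 12 and 16) had its highest astrocyte marker sum, 1540, 791, 2470 and 1880 FPKM. Whether cultures at the same position share a preparation is not given and was not tested.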

Other observations

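Several Kcn genes differed between isoforms, which the sums hide. A noncoding Kcnmb4 isoform of 517 bases went from 31.4 ± 5.88 FPKM in CONTROL-VEH to 15.9 ± 11.2 FPKM in OGD-VEH, while the coding isoform of 1367 bases had 26.0 ± 2.31 and 24.2 ± 3.40 FPKM (SD, n = 4). A noncoding Kcnk2 isoform of 384 bases was listed at 0 in all CONTROL-VEH cultures and had 4.66 ± 5.39 FPKM in OGD-VEH. The lower Kcnd1 level in CONTROL-TIA lay in a noncoding isoform of 751 bases, with 2.04 ± 1.56 FPKM in CONTROL-VEH and 0.115 ± 0.230 in CONTROL-TIA, whereas the coding isoform of 5287 bases had 2.95 ± 0.588 and 2.94 ± 0.101 FPKM.

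On coding isoforms alone, chosen after seeing the data, 13 Kcn genes were called lower in OGD-VEH, 8 of them among the 9, against 2.54% of the 12932 genes then tested called lower and 3.61% higher, and 6 over both arms, against 1.68% and 2.62%. Kcnc1, whose summed level did not pass, was then higher by 0.58 in OGD-VEH (padj = 0.0379) and by 0.38 over both arms (padj = 0.00368), with limma and below the fold threshold. Its coding isoform of 7760 bases had 10.5 ± 0.791 FPKM in CONTROL-VEH, 10.6 ± 1.15 in CONTROL-TIA, 15.5 ± 3.05 in OGD-VEH and 11.5 ± 0.825 in OGD-TIA.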
